A study of Mus musculus with 8 samples.

Results

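Transcripts of 10 genes for thrombospondins, other matricellular proteins and a thrombospondin receptor were followed in cultures of mouse bone marrow derived macrophages (BMDM): the thrombospondins Thbs1, Thbs2 and Thbs3, the fasciclin-domain proteins Postn and Tgfbi, then Tnc, Sparc, Spp1, Fn1 and the receptor gene Cd47. All 10 were found by symbol among the 55421 gene identifiers of the table. They were picked as matricellular genes with a receptor, and 4 of them (Thbs1, Thbs2, Postn and Tgfbi) were chosen by their higher TPM in the knockout than in wild type in an earlier fit of the same libraries. Their differences between the groups are therefore given as a description, without p-values.

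Matricellular proteins are secreted into the extracellular matrix, where they act on cells and growth factors more than they carry load. They are low in most resting adult tissue and are known for being made in development, wound repair and fibrosis. Thrombospondins bind calcium, collagens, proteases and cell-surface receptors, among them CD47, an immunoglobulin-family protein whose other ligand, SIRPα, sits on macrophages and carries the signal that restrains engulfment. Macrophages are a known source of osteopontin and fibronectin, and stromal cells of marrow are a known source of periostin and tenascin C.

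RNA was sequenced from 8 libraries of primary BMDM at day 7 of differentiation, 4 from wild-type (WT) and 4 from Baf60a KO cultures, of C57 mice per the series title. Both groups were labelled with the same treatment, BMDM differentiation, and their labels differ in genotype alone. Baf60a is the protein of Smarcd1, a subunit of SWI/SNF chromatin remodelling complexes, and the comparison asks which transcripts differ between the genotypes. How and where the gene was deleted and the age of the mice are not stated in the labels. They also do not say whether replicates are separate mice or cultures. Each p-value therefore reflects how far these libraries spread, which may be technical.

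Values are TPM (length-corrected transcript abundances scaled to a fixed library total), and they can be compared between genes. The table holds no read counts, so the depth behind each value is unknown. Smarcd1 was at 16.25, 14.29, 14.76 and 14.01 TPM in WT replicates 1 to 4 and at 10.79, 10.27, 10.85 and 9.91 TPM in KO, lower in every KO library than in any WT library. The KO mean was 70.5% of the WT mean, so most of the transcript signal remained in the libraries labelled KO. Without the position of the deleted part, this gene-level value does not check the deletion. WT replicates 3 and 4 stood apart, with 12.0% and 12.25% of their TPM on processed pseudogenes against 6.78% to 8.38% in the others, and calls that ended without both are named below. The macrophage markers listed for the check (Adgre1, Csf1r, Cd68 and 6 others) were all tested, at 10.4 TPM or more in every library. Of them 3 were called higher in KO (Cd68, Itgam and C1qa) and Lyz2 lower, where 4.40% and 1.21% of all genes were. Lyz2, the most abundant, fell from a mean of 3993 to 1927 TPM (log2 fold change -1.05), and the other 8 had positive fold changes. Their summed TPM was 5889 to 6831 in WT and 4548 to 4863 in KO with Lyz2 included. The calls of Lyz2 and C1qa held in all 8 fits with 1 library dropped. That of Cd68 held in 1 and that of Itgam in 2 of these fits (adjusted p up to 0.109 and 0.0885, both without KO replicate 4). Both ended without WT replicates 3 and 4. Stromal markers were expressed too, with Col1a1 at 1431 to 1939 TPM over the 8 libraries. In bulk RNA, fewer cells of a type and less RNA per cell cannot be told apart.

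The proximal promoters of 4 of the genes are shown because 3 of them belong to the genes that were higher in KO (Thbs2, Postn, Tgfbi), and the fourth, Spp1, is the most abundant gene of the set and had the largest negative fold change. Each is the stretch directly upstream of the RefSeq gene start on build GRCm38.p6, read 5′ to 3′ on the gene's strand and trimmed where GENCODE M21 places an exon. Of the 10 genes, 8 had an entry in the RefSeq promoter table. Thbs1 and Fn1 had none. Thbs2 is at chr17:14694263-14694512 (minus strand), Postn at chr3:54360857-54361106 (plus), Tgfbi at chr13:56609336-56609522 (plus) and Spp1 at chr5:104434861-104435110 (plus). Capitals mark matches on either strand to the TATA box (letters TATAAA), the AP-1 motif (letters TGANTCA), the TEAD motif (letters GGAATG), the RUNX motif (letters AACCAC) and the GC box (letters GGGCGG), or to the CArG box of serum response factor.
Thbs2: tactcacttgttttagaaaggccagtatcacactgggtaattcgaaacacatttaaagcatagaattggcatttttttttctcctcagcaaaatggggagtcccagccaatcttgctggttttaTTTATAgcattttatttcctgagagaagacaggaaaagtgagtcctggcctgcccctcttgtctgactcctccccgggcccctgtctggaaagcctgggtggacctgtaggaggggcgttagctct
Postn: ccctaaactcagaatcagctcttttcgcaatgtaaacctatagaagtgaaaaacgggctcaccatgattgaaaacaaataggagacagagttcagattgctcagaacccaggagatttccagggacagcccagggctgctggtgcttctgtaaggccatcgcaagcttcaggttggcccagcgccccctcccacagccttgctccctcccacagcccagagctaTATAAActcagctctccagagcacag
Tgfbi: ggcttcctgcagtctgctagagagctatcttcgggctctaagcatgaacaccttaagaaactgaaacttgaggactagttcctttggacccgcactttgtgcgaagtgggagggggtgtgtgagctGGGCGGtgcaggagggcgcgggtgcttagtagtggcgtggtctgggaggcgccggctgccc
Spp1: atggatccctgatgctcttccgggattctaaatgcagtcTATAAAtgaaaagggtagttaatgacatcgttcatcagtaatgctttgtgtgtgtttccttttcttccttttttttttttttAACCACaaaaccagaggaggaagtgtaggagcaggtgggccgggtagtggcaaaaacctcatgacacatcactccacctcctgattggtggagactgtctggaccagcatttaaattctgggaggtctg

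Over the 250 bases upstream, Postn held a TATA box that began 26 bases before the gene start. In Thbs2 the same letters lay on the other strand, beginning 126 bases before it, and in Spp1 and Tnc they began 211 and 126 bases before. TATAAA was present on either strand in 12.4% of all 32817 promoters of this length. The upstream stretch of Tgfbi had no TATAAA and held 1 GC box, as did that of Thbs3. GC boxes also began 167 bases before the gene start in Tnc and 48 and 28 bases before it in Cd47. Such a box was found in 32.7% of promoters. Spp1 was the 1 gene of the 8 with the RUNX letters, found in 10.8% of promoters. None of the 8 held the AP-1, TEAD or CArG letters, which 6.75%, 12.6% and 1.47% of promoters held. The RefSeq starts of Sparc and Cd47 lie 3103 and 55121 bases from the GENCODE gene starts, so their windows belong to another start within the gene. These matches describe the letters only. No motif was common to the upstream stretches of Thbs2, Postn and Tgfbi.

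The set spanned a wide range of levels, and its order was nearly the same in both groups. Spp1, which encodes osteopontin, an integrin-binding phosphoprotein, came first with a mean of 4036 TPM in WT, the 20th highest mean over all libraries among the 13933 genes tested. Sparc (a collagen-binding glycoprotein), Thbs1 and Fn1 (fibronectin) followed in WT with means of 1767, 1527 and 833.5 TPM. Postn (periostin), Thbs2, Cd47 and Tnc (tenascin C) lay at 212.6, 158.2, 134.1 and 81.9 TPM. Tgfbi (a secreted protein known for its induction by TGF-β) and Thbs3 were at 9.93 and 6.49 TPM. Together the 10 genes held 0.877% ± 0.0513 of all TPM in WT and 0.921% ± 0.0139 in KO (SD, n = 4).

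**Figure D1:**
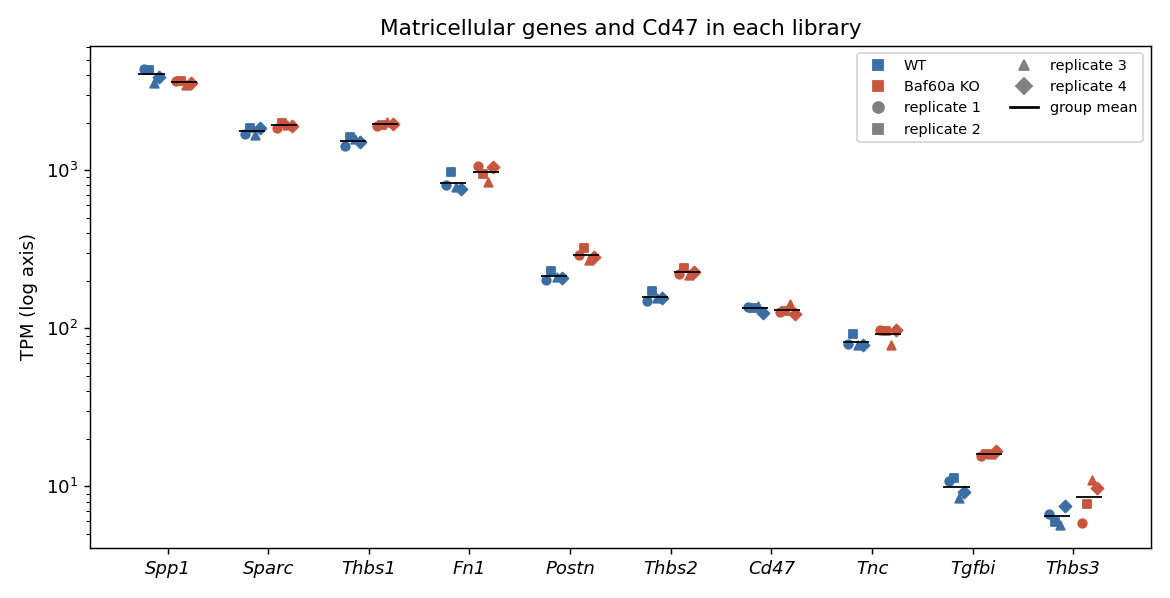
TPM of each gene in each library on a log axis, genes ordered by their WT mean; colours give the group, symbols the replicate number and bars the group mean. Spp1 is highest in every library, and the KO points of Thbs1, Postn, Thbs2 and Tgfbi lie above all their WT points.

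In WT no neighbours in this order overlapped over the 4 libraries. In KO, Thbs1 and Sparc changed places. Their KO ranges overlapped, from 1900 to 2024 TPM for Thbs1 and from 1844 to 1999 for Sparc, and Thbs1 was the higher in 3 of 4 KO libraries against 0 of 4 in WT. All other neighbours were separate in KO as well, so the remaining places were held in each library of both groups.

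Of the 10 genes, 4 were called higher in KO and 0 lower, in a fit over all 13933 genes tested in which 5.61% were called, 4.40% of all genes as higher and 1.21% as lower (limma on log2(TPM + 1), called at Benjamini-Hochberg adjusted p under 0.05). That is 613 genes higher and 169 lower, which became 503 and 406 with median-of-ratios scaling and 842 and 484 when TPM was rescaled over protein-coding genes. The 4 are the genes the choice rested on, so the count is no result of its own. Their groups did not overlap, which holds in the same direction for 11.9% of genes tested, and in the other direction, with KO lower, for 3.96%. The median log2 fold change, KO minus WT, was 0.28 over the 10 genes and 0.03 over all genes tested. The choice of the 4 raises the median of the 10, so that difference is no result of its own either. Nearest to the threshold among the called genes was Postn, with a log2 fold change of 0.46 and a standard error (SE) of 0.063, and nearest among the others was Sparc, at 0.12 with an SE of 0.047.

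**Figure D2:**
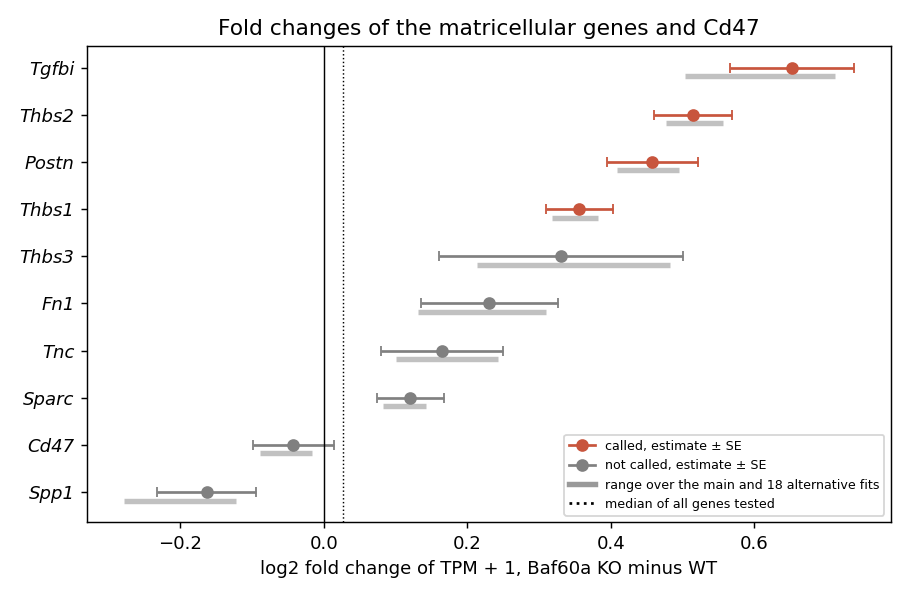
Log2 fold change of TPM + 1, KO minus WT, with its SE for each gene; grey bars span the estimates from the reported fit and 18 alternative fits, and the dotted line is the median of all genes tested (0.03). The bars of the 4 called genes all lie above 0.3, and the direction of each gene is the same in every fit.

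Thbs1 (chromosome 2, 118111876 to 118127133, mm10, plus strand) encodes thrombospondin-1, a trimeric protein of platelets, macrophages and stromal cells that binds CD47 and CD36 and can activate latent TGF-β. It stood at 1421, 1611, 1576 and 1502 TPM in WT replicates 1 to 4 and at 1900, 1935, 2024 and 1954 TPM in KO. The lowest KO library was above the highest WT library, and the ratio of means was 1.28 (log2 fold change 0.36, SE 0.047). Thbs1 was among the most abundant transcripts of the cultures, 79th of the genes tested.

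Thbs2 (chromosome 17, 14665500 to 14694235, minus strand) encodes thrombospondin-2, which has the same trimeric domain plan, binds CD47 and CD36 and is not an activator of latent TGF-β. It stood at 149, 173, 156 and 155 TPM in WT and at 221, 241, 218 and 226 TPM in KO. Replicate 2 was the highest library in each group, and every KO library was above every WT library. The ratio of means was 1.43 (log2 fold change 0.51, SE 0.054).

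Thbs3 (chromosome 3, 89215180 to 89226837, plus strand) encodes a thrombospondin of the pentameric subgroup. It stood at 6.73, 5.94, 5.71 and 7.56 TPM in WT and at 5.84, 7.69, 10.99 and 9.83 TPM in KO. The KO libraries spread from the level of the lowest WT libraries to well above the highest, with a coefficient of variation of 26.6% against 12.9% in WT, and the gene was not called (log2 fold change 0.33, SE 0.17). Its exons share 318 bases with those of Mtx1 on the other strand, a gene at 70.1 to 91.6 TPM. Whether counting used the strand is not given in the sources used here, so reads in those bases could be assigned to either gene.

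The ratio of 2 genes in one library does not depend on how that library was scaled. Where a gene of the pair was chosen for its rise in these libraries, a difference in the ratio partly restates that choice. Thbs1 was 9.51, 9.32, 10.1 and 9.69 times Thbs2 in WT and 8.60, 8.03, 9.30 and 8.65 times in KO, so the ratio was lower in every KO library than in any WT library. WT replicate 2 (9.32) and KO replicate 3 (9.30) nearly met. Among the genes tested, Thbs4, a pentameric thrombospondin, was absent: it was listed at 0 in all 4 WT libraries and at 0.29 to 0.92 TPM in KO, under the filter of TPM over 1 in at least 4 libraries. Comp, the fifth member of the family, was at 0.14 to 0.77 TPM.

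Postn (chromosome 3, 54361109 to 54391037, plus strand) encodes periostin, which binds integrins and helps to cross-link collagen. It stood at 201, 229, 211 and 209 TPM in WT and at 292, 324, 271 and 284 TPM in KO. Every KO library was above every WT library, with a ratio of means of 1.38 (log2 fold change 0.46, SE 0.063). Postn was 1.34, 1.33, 1.36 and 1.35 times Thbs2 in WT and 1.32, 1.34, 1.24 and 1.26 times in KO, a ratio that stayed in a narrow band while both levels differed between the groups.

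Tgfbi (chromosome 13, 56609523 to 56639562, plus strand) encodes a second fasciclin-domain protein, which binds collagens and integrins. It stood at 10.79, 11.31, 8.44 and 9.18 TPM in WT and at 15.57, 16.11, 16 and 16.65 TPM in KO. The KO libraries lay close together, with a coefficient of variation of 2.76% against 13.5% in WT, and the groups did not overlap. Its fold was the largest of the set, with a ratio of means of 1.62 (log2 fold change 0.65, SE 0.087). Without WT replicates 3 and 4, the lower pair of the WT libraries, the log2 fold change was 0.50.

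Tnc (chromosome 4, 63959785 to 64047015, minus strand) encodes a hexameric matrix protein known for its presence at sites of repair. It stood at 79.8, 91.6, 78.0 and 78.1 TPM in WT and at 96.9, 96.3, 77.8 and 97.3 TPM in KO. In each group 3 libraries agreed closely and 1 departed: WT replicate 2 lay between the other WT libraries and the 3 high KO libraries, and KO replicate 3 lay just under all WT libraries. Tnc was not called (log2 fold change 0.17, SE 0.085). Without WT replicate 2 the log2 fold change was 0.22, and without KO replicate 3 it was 0.24, still without a call. Without WT replicates 3 and 4 it was 0.10.

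Fn1 (chromosome 1, 71585520 to 71653200, minus strand) encodes fibronectin, a provisional matrix protein that binds integrins. It stood at 810, 976, 786 and 763 TPM in WT and at 1068, 951, 846 and 1046 TPM in KO. WT replicate 2 was above 2 of the 4 KO libraries, so the groups overlapped, and Fn1 was not called (log2 fold change 0.23, SE 0.096). Without WT replicates 3 and 4 the log2 fold change was 0.13. Fn1 was 10.1, 10.7, 10.1 and 9.77 times Tnc in WT and 11, 9.88, 10.9 and 10.7 times in KO. The 2 genes were high and low in nearly the same libraries.

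Sparc (chromosome 11, 55394500 to 55423183, minus strand) encodes osteonectin, which binds collagen during its assembly. It stood at 1698, 1837, 1681 and 1850 TPM in WT and at 1844, 1999, 1943 and 1894 TPM in KO. The lowest KO library lay just under the highest WT library, and Sparc was not called (log2 fold change 0.12, SE 0.047). Thbs1 over Sparc was 0.837, 0.877, 0.938 and 0.812 in WT and 1.03, 0.968, 1.04 and 1.03 in KO, without overlap.

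Spp1 (chromosome 5, 104435118 to 104441050, plus strand), which macrophages and osteoclasts express at high levels, was the 1 secreted protein of the set with a lower mean in KO. It stood at 4381, 4331, 3543 and 3890 TPM in WT and at 3646, 3668, 3479 and 3574 TPM in KO. WT replicates 1, 2 and 4 were above every KO library, while WT replicate 3 lay among them, and Spp1 was not called (log2 fold change -0.16, SE 0.069). It was called lower in KO without WT replicates 3 and 4 (log2 fold change -0.28) and when TPM was rescaled over protein-coding genes (log2 fold change -0.19), which takes out the difference in the pseudogene share. Spp1 over Thbs1 was 3.08, 2.69, 2.25 and 2.59 in WT and 1.92, 1.90, 1.72 and 1.83 in KO, without overlap. Of its 31-base words, 14.3% are shared with Gm42793, a transcript on the same strand inside the gene at 4.35 to 7.07 TPM.

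Cd47 (chromosome 16, 49800533 to 49915010, plus strand), the receptor of the set, stood at 136, 135, 139 and 126 TPM in WT and at 126, 129, 143 and 123 TPM in KO. The groups overlapped over nearly their whole range, and Cd47 was not called (log2 fold change -0.04, SE 0.056). Thbs1 transcripts per Cd47 transcript were 10.4, 11.9, 11.3 and 12.0 in WT and 15.1, 15.0, 14.1 and 15.9 in KO. The ratio was higher in every KO library than in any WT library. As Thbs1 was chosen for its rise, its ratios to Cd47, Sparc and Spp1 give no separate result for it.

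To see which of the genes vary together apart from the genotype, the group mean was taken from each gene's log2(TPM + 1) and the deviations of the 8 libraries were compared. The closest pairs were Tnc with Fn1 (Pearson r = 0.92), Thbs2 with Postn (0.919) and Tgfbi with Spp1 (0.915), all over 8 libraries that share their scaling. Thbs1 was not as close to any other gene of the set, the nearest being Thbs2 (0.515). The lowest values were those of Cd47 with Tnc (-0.613) and of Thbs3 with Tnc (-0.579), Fn1 (-0.557) and Postn (-0.505). Fn1 with Cd47 (-0.434) and Thbs1 with Spp1 (-0.387) followed, and with 8 libraries such values only rank the pairs. The plot of library values shows that the Tgfbi and Spp1 likeness came from the WT libraries, which are ordered alike for both genes except for replicates 1 and 2. In KO both genes had a narrow range. The likeness of Tnc and Fn1 rests largely on WT replicate 2 and KO replicate 3, with Tnc at 91.55 and 77.83 TPM. In the other libraries Tnc hardly varied, at 78.01 to 79.81 TPM in WT and 96.29 to 97.32 in KO.

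**Figure D3:**
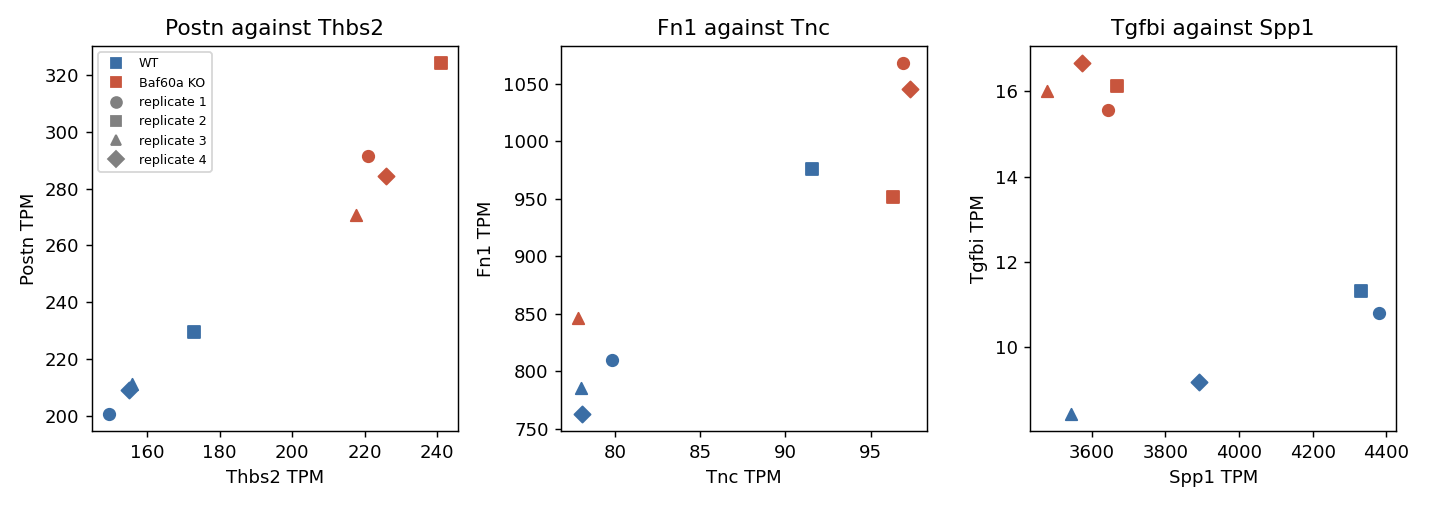
TPM of 3 pairs of genes against each other on linear axes that do not start at 0, 1 point per library, colours for the group and symbols for the replicate number. Postn and Thbs2 follow a line in both groups. For Fn1 and Tnc, WT replicate 2 and KO replicate 3 lie apart from their groups, KO replicate 3 beside the WT points. Every KO point of Tgfbi is above its WT points, but only WT replicate 3 falls within the KO range of Spp1.

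Outside the set, the genes most like Thbs1 in these deviations among 10444 genes with mean TPM over 5 were Csf1 (r = 0.988), Mtch1 (0.967), Wdr77 (0.965), Kdelr3 (0.965) and Fryl (0.964). Csf1, the growth factor of macrophages, was at a mean of 211 TPM in WT and 191 in KO. For Postn they were Pdrg1 (0.956), Dnajc2 (0.947), Casp4 (0.945), Entpd5 (0.944) and Dis3l (0.941). For Spp1 they were Map4k3 (0.99), Arhgef3 (0.99), Esyt2 (0.984), Nus1 (0.984) and Zc3hav1 (0.984). With 8 libraries and 10444 genes compared, values of this size describe the ranking alone.

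The other genes of the matricellular system were read from lists of other matricellular proteins, receptors, enzymes, the TGF-β axis and CD47 partners, 107 genes in all. Of the 90 tested, 16 rose, 2 fell and 72 did not pass, while 4.40% of all genes tested rose and 1.21% fell. The median log2 fold change of the 90 was 0.13 against 0.03 over all genes tested. Without KO replicate 4 the 18 calls became 7, without KO replicates 2 and 3 in turn 8 and 10, without KO replicate 1 or WT replicate 4 it was 11, and without WT replicates 3 and 4 together 10. With TPM rescaled over protein-coding genes they became 28, of which 6 were receptors, 7 of the TGF-β axis and 3 partners of CD47. The lists were chosen with earlier results of these data known, so the shares that rose are given as a description. Among 30 other matricellular proteins 16 were tested, of which 6 rose, 0 fell and 10 did not pass (by limma; a share of 37.5% that rose, against 4.40% of all genes). The 6 calls became 2 without KO replicate 2 or 4 and 3 without WT replicate 1, WT replicate 4, KO replicate 1, KO replicate 3 or the pair of WT replicates 3 and 4. Ccn5, a CCN protein that lacks the C-terminal domain of its relatives, rose from 83.0 ± 6.08 to 147.0 ± 14.8 TPM (a log2 difference of 0.81, SE 0.078, adjusted p = 0.00179). Its KO libraries, at 138 to 169 TPM, all lay above the WT libraries at 76.2 to 90.3.

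Ccn2, connective tissue growth factor, rose from 676.0 ± 19.5 to 827 ± 43.1 TPM (a log2 difference of 0.29, limma adjusted p = 0.0133), and Ecm1, a glycoprotein that holds latent TGF-β in check, from 199 ± 6.96 to 241 ± 9.97 TPM (0.28, adjusted p = 0.0129). Emilin1, an elastic-fibre glycoprotein (0.32, adjusted p = 0.0318), and Smoc1, a relative of Sparc at 3.14 ± 0.433 and 4.93 ± 0.818 TPM (0.51, adjusted p = 0.0394), rose as well. Ccn4, the sixth, was named after its values were seen (0.41, adjusted p = 0.0458). The Ccn2 call ended without KO replicate 2 (adjusted p = 0.0517) or KO replicate 4. That of Ecm1 held with any 1 library dropped (adjusted p up to 0.0488, without KO replicate 4). It ended with the replicate number as a block (0.0598). Among the 8 fits that drop 1 library, Emilin1 and Ccn4 stayed called only without WT replicate 2 and Smoc1 only without WT replicate 3. Their largest adjusted p in these fits were 0.096 and 0.127 (Emilin1 and Ccn4, KO replicate 4 dropped) and 0.0985 (Smoc1, WT replicate 4 dropped). Without WT replicates 3 and 4 together none of these 3 was called. Smoc1 and Ccn4 were also not called with median-of-ratios scaling.

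Among 29 receptors 26 were tested, of which 2 rose, 1 fell and 23 did not pass; the share that rose, 7.69%, was near that of all genes, 4.40%. The integrin chain Itgb7, partner of α4, rose from 22.4 ± 2.02 to 34.0 ± 1.68 TPM (a log2 difference of 0.59, limma adjusted p = 0.00418). Itgb5, which with αV binds osteopontin, periostin and vitronectin, rose from 87.7 ± 5.51 to 106 ± 2.17 TPM (0.27, adjusted p = 0.024). Stab1, the scavenger receptor that takes up SPARC, fell from 66.2 ± 4.12 to 46.0 ± 2.91 TPM (a log2 difference of -0.52, adjusted p = 0.00503), with all KO libraries at 41.6 to 47.7 TPM under all WT libraries at 61.8 to 71.6. Itgb5 was not called when WT replicate 4 or any 1 KO library was dropped, and its adjusted p reached 0.0768 when that was KO replicate 4. It was 0.0508 without WT replicates 3 and 4. Cd36, the second main receptor of Thbs1 and Thbs2, was picked out after its values were seen: it stood at 1049 to 1443 TPM in WT and 873 to 1187 in KO and did not pass (log2 fold change -0.29, adjusted p = 0.195).

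Of the 11 partners of CD47, all tested, 1 rose, 0 fell and 10 did not pass (9.09% rose, near the 4.40% of all genes). Ptpn6, the phosphatase SHP-1 that SIRPα recruits, rose from 36.7 ± 1.79 to 54.4 ± 2.52 TPM (a log2 difference of 0.56, SE 0.051, limma adjusted p = 0.00159). It was at 38.11, 38.40, 34.98 and 35.36 TPM in WT and at 54.77, 51.57, 57.64 and 53.74 in KO. Sirpa, the ligand and counter-receptor of CD47, was at 306 ± 27.4 and 325 ± 14.0 TPM (adjusted p = 0.476), with overlapping groups. Gnai2, the inhibitory G protein subunit that couples to CD47, was at 488 ± 19.3 and 528 ± 13.7 TPM and did not pass (adjusted p = 0.135).

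Enzymes that activate, cleave or cross-link matrix proteins were tested in all 16 members, of which 5 rose, 0 fell and 11 did not pass (31.2% rose, against 4.40% of all genes). The 5 calls became 2 without KO replicate 2, 3 or 4, and 3 without WT replicate 4, KO replicate 1 or the pair of WT replicates 3 and 4. Bmp1, the procollagen C-proteinase, rose from 87.7 ± 3.41 to 119 ± 3.86 TPM (a log2 difference of 0.44, limma adjusted p = 0.00181). Adamts1, a protease that can cleave thrombospondins, rose from 26.6 ± 0.931 to 34.1 ± 1.46 TPM (0.34, adjusted p = 0.00873). Mmp14, a membrane-bound collagenase (0.26, adjusted p = 0.0193), and the lysyl oxidases Lox (0.26, adjusted p = 0.025) and Loxl2 (0.29, adjusted p = 0.0356) rose too. Mmp14 was not called when KO replicate 2, 3 or 4 was dropped (largest adjusted p 0.0708, for KO replicate 4), nor Lox when WT replicate 4 or any 1 KO library was (0.0741, for KO replicate 3). Loxl2 stayed called only when WT replicate 2 was dropped (0.103, for KO replicate 4). Without WT replicates 3 and 4 neither Lox (adjusted p = 0.0654) nor Loxl2 (0.103) was called.

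Of 22 genes of the TGF-β axis, all tested, 2 rose (9.09%, against 4.40% of all genes), 1 fell (1.21% of all genes did) and 19 did not pass. Tgfb3, a TGF-β ligand, rose from 76.7 ± 4.98 to 96.9 ± 3.46 TPM (a log2 difference of 0.33, limma adjusted p = 0.0135), and Tgfbr1, a receptor kinase, from 8.42 ± 0.616 to 10.79 ± 0.640 TPM (0.33, adjusted p = 0.0333). Ltbp2, a microfibril protein related to the latent TGF-β binding proteins, fell from 16.03 ± 0.981 to 12.1 ± 0.522 TPM (a log2 difference of -0.38, adjusted p = 0.0131). Without KO replicate 4 none of the 3 was called, with adjusted p of 0.054, 0.098 and 0.054, for Tgfb3, Tgfbr1 and Ltbp2. Tgfb3 was also not called without KO replicate 2, and Tgfbr1 stayed called only without WT replicate 2. Neither was called without WT replicates 3 and 4 (adjusted p = 0.0521 and 0.1).

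**Figure D4:**
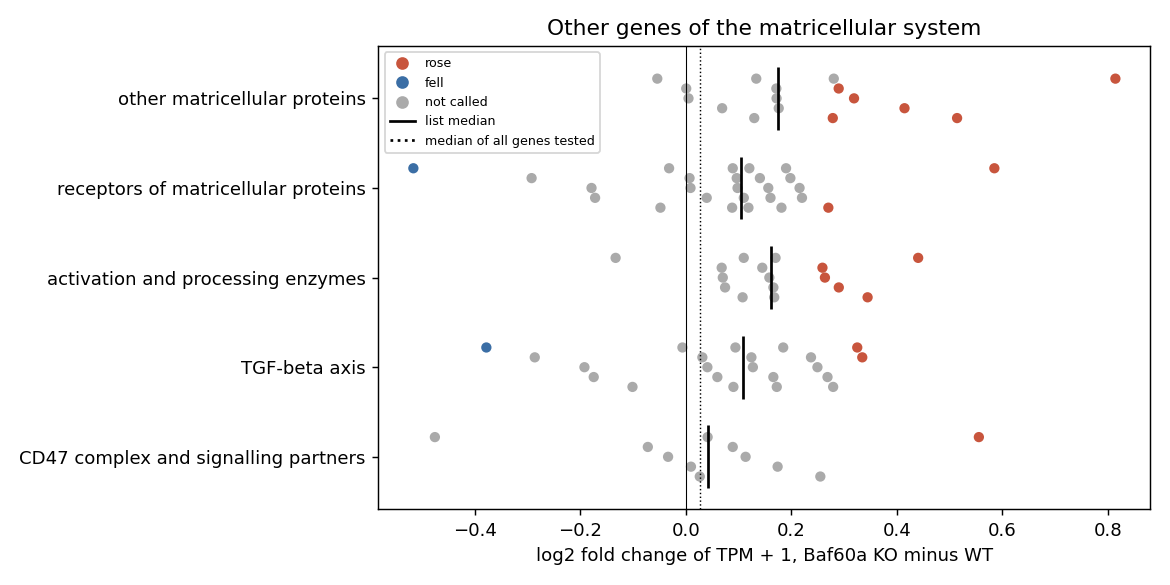
Log2 fold change of TPM + 1, KO minus WT, for each tested gene of the 5 lists, coloured by its call; black bars are list medians and the dotted line is the median of all genes tested (0.03). All called matricellular proteins, enzymes and CD47 partners lie to the right of 0, and Stab1 and Ltbp2 are the 2 called genes to the left.

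Markers of other cell types moved beside these differences. The counts below stand beside 4.40% of all genes tested that rose and 1.21% that fell. With few genes in each list, 1 call is no result about a cell type. Of 10 stromal fibroblast markers 8 were tested and 4 rose (Col1a1, Col3a1, Pdgfrb and Thy1), and the summed TPM of the 10 was 3500 to 3852 in WT and 4159 to 4475 in KO. The other 4 tested, Col1a2, Pdgfra, Cxcl12 and Dcn, did not pass, and Dcn had a lower mean in KO (3.96 against 5.92 TPM). Lum and Lepr were under the filter, and none was at 0 in all libraries. Col1a1 was not called without KO replicate 4 (adjusted p = 0.0573), nor Col3a1 without WT replicate 2 or 4, KO replicate 2 or 4 (up to 0.0768, without KO replicate 4) or the pair of WT replicates 3 and 4. Of 5 smooth muscle markers 4 were tested and 2 rose (Cnn1 and Acta2), with a sum of 2024 to 2301 TPM in WT and 2740 to 2897 in KO. Tagln did not pass, nor did Des, which was at 2.79 to 3.71 TPM in WT and 2.05 to 2.77 in KO and was called lower in 3 alternative fits, among them both other scalings.

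Of 6 endothelial markers 5 were tested and 1 rose (Emcn, log2 fold change 0.61, limma adjusted p = 0.0342), with a sum of 38.5 to 48.2 TPM in WT and 46.6 to 55.1 in KO. Of 7 osteoclast markers 4 were tested and 1 rose (Acp5, 0.57, adjusted p = 0.0352), with a sum of 258 to 329 TPM in WT and 244 to 276 in KO and Calcr at 0 in all libraries. Emcn stayed called only without WT replicate 2 or 3 and Acp5 only without WT replicate 1 among the 8 fits that drop 1 library, with adjusted p up to 0.0944 (KO replicate 3) and 0.0987 (KO replicate 4), and Acp5 not without WT replicates 3 and 4. Of 7 megakaryocyte and platelet markers 4 were tested and 0 were called, with a sum of 1409 to 2170 TPM in WT and 1010 to 1407 in KO that was nearly all Pf4. Gp9, Gp1ba and Gp1bb were under the filter. None of the tested osteoblast (2 of 6) or neutrophil (4 of 7) markers was called, with sums of 13.4 to 15.1 and 191 to 283 TPM in WT and 12.4 to 15.7 and 146 to 234 in KO. The part of any of these cells in the differences was not tested.

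Set against the summed stromal markers of the same library, a measure added after the data were seen, the 4 genes that were higher in KO kept different amounts of their difference. Col1a1, Col1a2 and Col3a1 made up 91.1% to 93.8% of that sum, so the measure is in effect a ratio to fibrillar collagen. As the sum was higher in KO, a gene with the same TPM in every library would show a ratio of 0.846. Tgfbi was 0.297%, 0.294%, 0.241% and 0.246% of that sum in WT and 0.374%, 0.376%, 0.358% and 0.373% in KO, a ratio of means of 1.37. Thbs2, at 4.11% to 4.49% in WT and 4.86% to 5.62% in KO (ratio 1.21), and Postn, at 5.52% to 6.03% and 6.05% to 7.56% (ratio 1.17), did not overlap either. Thbs1 did, at 39.1% to 45.0% in WT and 43.8% to 45.7% in KO (ratio 1.08). All 4 genes were chosen for their rise in these libraries, which favours such separation. The share of all genes that separate on this measure was not counted.

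On the same measure Spp1 was lower in every KO library, at 77.7% to 87.7% against 101% to 121% in WT (ratio 0.755). Cd47, at 2.76% to 3.20% in KO and 3.37% to 3.98% in WT (ratio 0.821), and Sparc, at 42.5% to 46.6% and 46.7% to 49.6% (ratio 0.921), were lower without overlap as well. The TPM of Spp1, Cd47 and Sparc overlapped between the groups, with KO over WT ratios of means of 0.89, 0.972 and 1.09. On this measure the higher sum in KO would by itself give a ratio of 0.846. Fn1 (ratio 0.997), Tnc (0.955) and Thbs3 (1.11) overlapped.

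**Figure D5:**
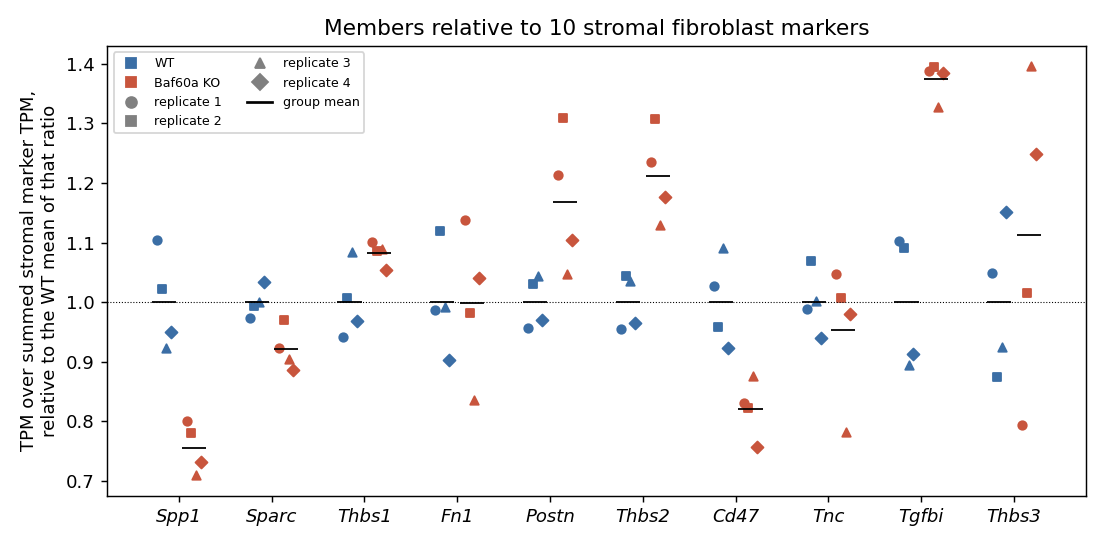
TPM of each gene divided by the summed TPM of 10 stromal fibroblast markers in the same library, relative to the WT mean of that ratio; the axis does not start at 0, colours give the group, symbols the replicate number and bars the group mean. The KO points of Tgfbi, Thbs2 and Postn stay above the WT points, those of Spp1, Cd47 and Sparc lie below them, and those of Thbs1 overlap them.

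Sequence shared with other genes was counted as words of 31 bases, since reads from such stretches can be assigned to either gene. No 31-base word of a Thbs2 or Postn transcript occurred in a transcript of another gene, and the shared part was 1.06% for Tgfbi, 2.68% for Thbs1 (nearly all with Gm29233 on the other strand, at up to 0.65 TPM) and 4.71% for Thbs3 (all with Mtx1). The thrombospondins shared no such word with each other.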

How the data were processed

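RNA-seq of 8 libraries was analysed from 1 table of the whole series. The library kit was NEBNext Ultra RNA, read as pairs of 51 bp, per the labels' protocols. The submitters' processing notes name bcl2fastq, Salmon 1.2.0 and mm10. Which transcript annotation was used is not given in the sources used here. Values were deposited as TPM with 2 decimals, a unit read from the column sums since the header names none. TPM keeps no depth, so no counting interval is given.

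Of 55421 identifiers 55240 matched a GENCODE M21 symbol. The 13933 genes above 1 TPM in 4 or more libraries were compared on log2(TPM + 1), which understates changes of low genes, with limma 3.58.1 in R 4.3.3 (mean-variance trend, group only, Benjamini-Hochberg over all genes). Tested on simulated data with these 13933 genes, this recovered 30.7%, 73.3% and 89.7% of genes changed by 1.25, 1.5 and 2 times, with 5.3% of calls false. The simulation drew independent normal noise for each gene and library, with as many genes changed up as down. It held no effect shared by the genes of a library, so 5.3% need not hold for the real libraries. There were 18 alternative fits. The members and lists were chosen with earlier results of these data known. Named list genes are the called ones with the smallest adjusted p, at most 5 a list, and, with fewer than 2 called, the 2 most abundant others. Likeness is Pearson's r of deviations from group means. One marker of the platelet list is not reported here and was left out of its sum.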

Additional observations from a re-analysis of the deposited data

Results flagged for a closer look

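In 92 groups of 4 libraries, 6 held a library whose gap to the nearest other, divided by the group's range, was above Dixon's 95% critical value. Chance flags about 1 in 20 groups. Tnc was flagged in both groups, with WT replicate 2 at 91.55 TPM against 78.01 to 79.81 in the other WT libraries, and KO replicate 3 at 77.83 TPM against 96.29 to 97.32 in the other KO libraries. Smoc1 was at 6.14 TPM in KO replicate 3 against 4.37 to 4.65 in the others. Stab1 was at 41.63 TPM in KO replicate 2 against 46.88 to 47.74 in the others. C1qa was at 233.65 TPM in WT replicate 1 against 201.43 to 206.61 in the others, and Des at 2.77 TPM in KO replicate 3 against 2.05 to 2.17.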

How the results depend on the processing

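Thbs1, Thbs2, Postn and Tgfbi were called in all 18 alternative fits, which reuse the libraries that chose these genes and so give no independent support. Spp1 was called, as lower, in 2. The count over all genes depended more on the setting: 782 were called, against 364 with no filter on low values, 1326 with TPM rescaled over protein-coding genes, 372 without WT replicates 3 and 4 together, and 156 (without KO replicate 4) to 679 (without WT replicate 1) with 1 library left out. Of these 613 were higher in KO, against 292 with no filter and 201 without WT replicates 3 and 4, and 120 to 532 with 1 library left out. In the pathway lists 18 genes were called, against 28 with the protein-coding rescale, 10 without WT replicates 3 and 4, and 7 to 18 with 1 library left out. The cause of these shifts was not tested, beyond the fewer samples. Sirpa changed sign without WT replicates 3 and 4 (log2 fold change -0.0119). Over 46 genes and 18 alternatives, 690 values kept direction and call, 128 lost the call, 6 gained it and 1 changed sign.

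Same-numbered libraries did not deviate together (r from -0.113 to 0.0124), so these values show no pairing by number. With 4 libraries in each group they cannot exclude one. With a replicate block, 209 genes were called, 146 of them higher, and 9 of the pathway lists, and the same 4 members were called. The deposited TPM hold no depth, which limits what can be said of low genes such as Thbs3 and Thbs4.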
